A study of Danio rerio with 4 samples.

Results

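Skin of male zebrafish at 24 months of age was set against skin at 5 months by RNA sequencing. The 24-month group has 2 libraries, called replicates 1 and 2, from the strain AB JxTu Tg(wt1b:GFP), a reporter line in which regulatory sequence of wt1b, a gene known for its role in the kidney glomerulus, drives green fluorescent protein. The 5-month group has 1 library, from the strain AB JxTu without the transgene. A further AB JxTu library from fish of 30 months is the only other library of the series, and it serves here for context, for the scaling and in the edgeR model. Strain cannot be told apart from the age of 24 months, because every 24-month library carries the transgene and no other library does. The labels do not say how many fish gave each library, from which part of the body the skin came, or whether the 24-month libraries came from different fish, so their spread may be technical. The genes described are the 13117 of 32105 whose level averaged at least 5 CPM (counts scaled to a common library size, after TMM correction of the sizes) over the 3 libraries. A gene was called higher or lower at 24 months only where both 24-month libraries differed from the 5-month library by 2-fold or more in the same direction.

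Fish skin is a living, non-cornified epidermis of keratinocytes, mucous cells and ionocytes on a basement membrane, above a collagen-rich dermis that holds pigment cells, bony scales, vessels and nerves. Keratinocytes hold to each other through desmosomes and claudin-based tight junctions, and basal keratinocytes hold to the basement membrane through hemidesmosomes, in which laminin, integrin alpha6-beta4 and collagen XVII meet. Skin is also an immune barrier, with resident macrophages and lymphocytes. RNA of whole skin mixes all of these cells, so fewer cells of a type and less RNA per cell cannot be told apart in any value below.

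The libraries held 20070292 and 11833498 counts at 24 months and 18211821 counts at 5 months. A sum of 3 counts, which is the limit a count of 0 allows, was worth 0.13 and 0.31 CPM at 24 months and 0.144 CPM at 5 months, for counting error only. Epidermal markers fixed for a check of the tissue summed to 34995 and 62758 CPM at 24 months and 26097 CPM at 5 months, with 10 of 11 markers at 1 CPM or more in each 24-month library and 11 of 11 at 5 months (cyt1 was at 0 in replicate 2). Markers of other tissues differed between the libraries, and the library that stood apart was not the same for each tissue. Testis and germ cell markers summed to 593.7 and 0.827 CPM at 24 months and 625.3 CPM at 5 months, with TDRD1, SYCP3, insl3, DAZL, PIWIL1 and TEKT1 at 0 in replicate 2. Kidney tubule markers summed to 12.2 and 2.48 CPM at 24 months and 330.8 CPM at 5 months, skeletal muscle markers to 6415 and 5046 CPM at 24 months and 15294 CPM at 5 months, and erythrocyte markers to 101.8 and 66.4 CPM at 24 months and 548.1 CPM at 5 months. Liver markers summed to 626.8 and 1.76 CPM at 24 months and 152.4 CPM at 5 months. Dermal fibroblast markers summed to 5043 and 63902 CPM at 24 months and 42974 CPM at 5 months, so that the 5-month library lay between the 24-month libraries. The part of these differences in the results was not tested.

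**Figure D1:**
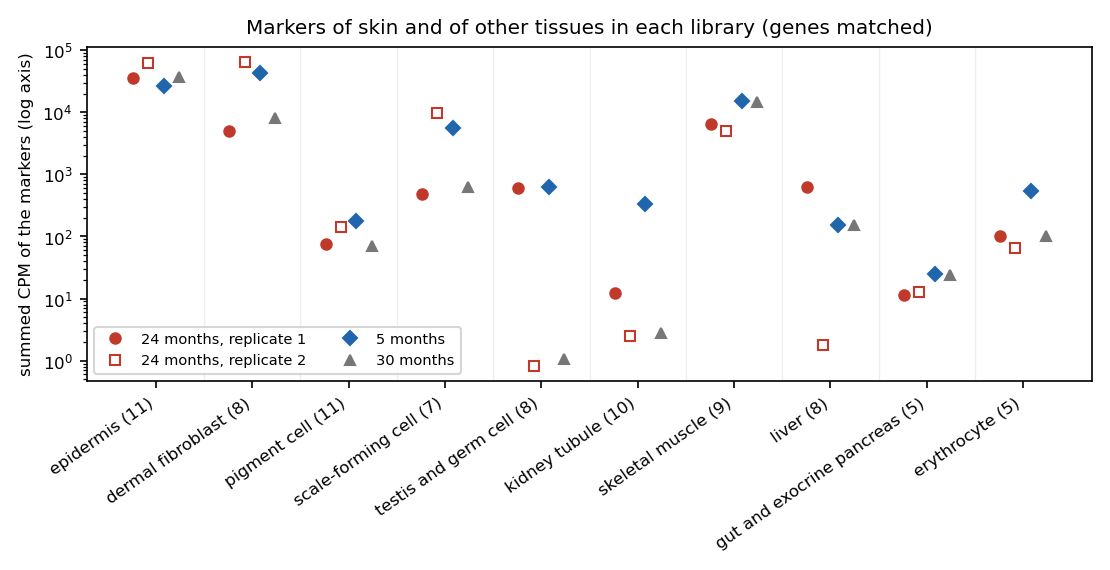
Summed CPM (log axis) of the markers of 10 tissues or cell types in each library, with the number of genes matched in brackets. Filled circles and open squares are the 24-month replicates 1 and 2, diamonds are 5 months and triangles are 30 months. Kidney tubule, skeletal muscle and erythrocyte markers are lower in both 24-month libraries than at 5 months, while dermal, scale, testis and liver markers set the 24-month libraries apart from each other.

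The comparison asks how the transcripts of old skin differ from those of young adult skin. In all, 496 genes (3.78% of 13117) were 2-fold or more higher in both 24-month libraries, and 576 (4.39%) were 2-fold or more lower, or 8.17% together. At least 4-fold differences in both libraries were found for 79 higher and 92 lower genes, and at least 8-fold differences for 15 higher and 34 lower genes. Replicate 1 alone had 932 higher and 1249 lower genes, and replicate 2 alone had 2749 higher and 2929 lower genes. The 24-month libraries lay at least 2-fold apart from each other at 5336 genes, against 2181 genes for replicate 1 and 5678 genes for replicate 2 when set against 5 months. The count of calls is thus limited mostly by replicate 1, which lay nearest to the 5-month library. The medians over all 13117 genes were −0.06 in replicate 1 and 0.13 in replicate 2 on the log2 scale, and each median of a gene list below is read against them. Under library totals without TMM scaling the median for replicate 2 moved to −0.38, and the counts became 372 higher and 771 lower, so that 32.5% of the calls were higher, against 46.3% with TMM scaling. With 2 libraries against 1, an exact permutation test of a gene cannot give a p below 0.333, so the 2-fold rule carries no test.

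**Figure D2:**
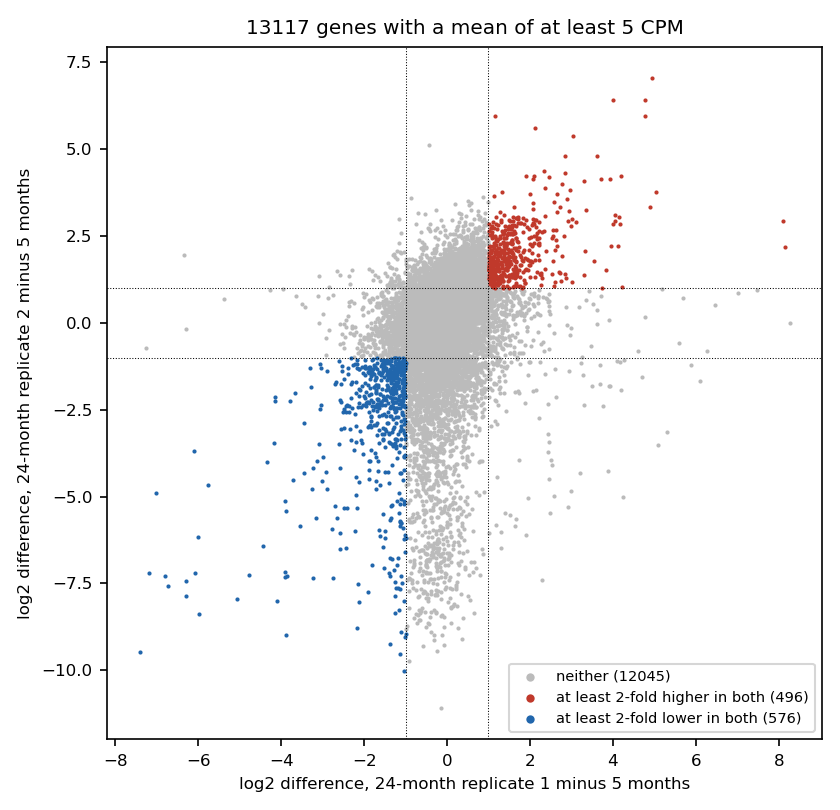
Log2 difference from the 5-month library for 13117 genes, in 24-month replicate 1 (horizontal axis) and replicate 2 (vertical axis), with dotted lines at 2-fold. Red points are the 496 genes higher and blue points the 576 genes lower by the 2-fold rule, and grey points the rest. The band that runs down the middle is made of genes much lower in replicate 2 and within 2-fold of 5 months in replicate 1.

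Across all genes the test used was that of edgeR, in which the spread of the 24-month pair stands in for the spread of the lone 5-month library. That spread was pooled over genes, because the prior degrees of freedom came out infinite. The SE and p of a gene therefore do not measure that gene's own spread in the pair. The test called 27 of 21535 genes at an adjusted p of 0.05, and 438 genes had an unadjusted p under 0.05. Of the 27, 9 (0.0418%) were higher and 18 (0.0836%) lower at 24 months. Of these, 5 higher and 18 lower genes also met the 2-fold rule in both libraries. The words rose and fell are used below only of those genes. The count of edgeR calls was 0 with library totals, with a minimum of 5 CPM or with the newer dispersion setting of edgeR, 41 with DESeq2 and 3 with limma-voom, so these calls depend on the model. Calls by the 2-fold rule were more frequent among abundant genes in the higher direction and among scarce genes in the lower direction. Of 243 genes that averaged 500 CPM or more, 12.8% were higher and 4.53% lower, while of 3026 genes between 5 and 10 CPM, 3.27% were higher and 7.77% lower. The floor of 5 CPM has a part in this, as 660 genes passed it through the 5-month library only, of which 234 were lower, and 643 passed it through the 24-month libraries only, of which 149 were higher.

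**Figure D3:**
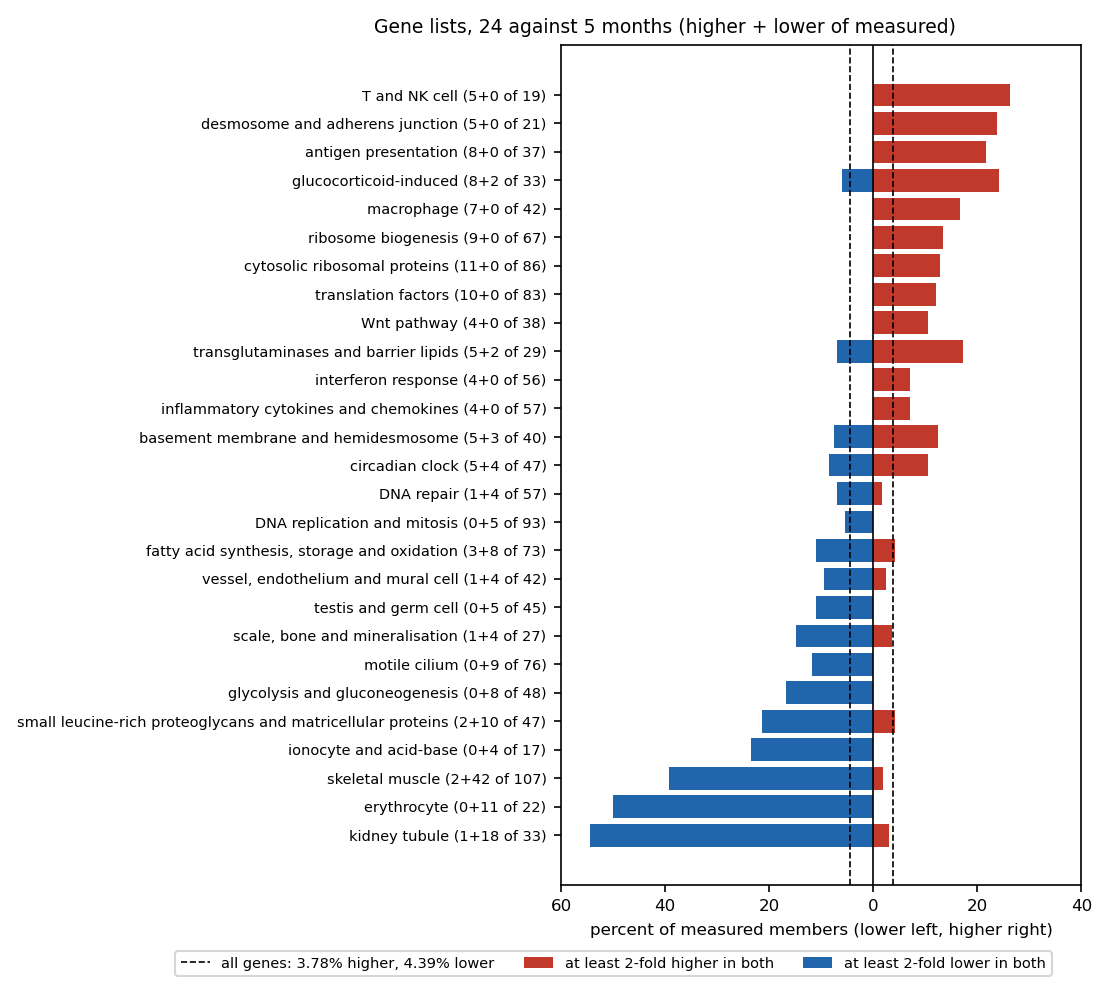
Percent of the measured members of each gene list that were higher (red, to the right) or lower (blue, to the left) by the 2-fold rule, for the 27 lists with at least 4 members called in a direction. Dashed lines mark the shares over all 13117 genes, 3.78% higher and 4.39% lower. Lists of T and NK cell, desmosome, antigen presentation and glucocorticoid-induced genes lie at the top, and skeletal muscle, erythrocyte and kidney tubule lists at the bottom.

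Among the genes with the largest higher differences in both libraries were enzymes, transcription factors and adhesion proteins. The gene vopp1a, whose human counterpart VOPP1 encodes a vesicle membrane protein, stood at 35.6 and 152.1 CPM at 24 months, against 1.06 CPM at 5 months, and rose by 6.46 on the log2 scale (SE 1.27, edgeR adjusted p = 0.00178, n = 2 and 1). Its level at 30 months was 0.21 CPM, so vopp1a was low in both libraries without the transgene. The sterol hydroxylase gene CYP8B1 (ENSDARG00000053068), a homologue of a mammalian enzyme of bile acid synthesis, stood at 67.8 and 209.8 CPM at 24 months, against 2.35 CPM at 5 months, and rose by 5.88 (SE 1.19, edgeR adjusted p = 0.00295). A paralogue, CYP8B1 (ENSDARG00000097556), stood at 159.9 and 205.6 CPM at 24 months, against 48.9 CPM at 5 months. Both paralogues were also high at 30 months, at 99.3 and 221.5 CPM. The intelectin gene itln4, whose product binds microbial sugars, stood at 62.0 and 313.8 CPM at 24 months, against 7.44 CPM at 5 months, and rose by 4.66 (SE 1.12, edgeR adjusted p = 0.0339).

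The other 2 called genes that met the rule were higher mainly in replicate 1. The interferon-induced gene ifi44a6 stood at 58.6 and 0.827 CPM at 24 months, against 2 counts at 5 months (edgeR adjusted p = 0.0143), and its ratio of 432.8 had an exact 95% counting interval of 119.6 to 3577.4. The gene zgc:101699 stood at 122.7 and 3.31 CPM at 24 months, against 0.336 CPM at 5 months (edgeR adjusted p = 0.00137). In replicate 2 alone their log2 differences were 2.18 and 2.94, and in replicate 1 alone 8.15 and 8.1. This wide spread within the pair had no weight of its own in their p-values, since the spread was pooled over genes.

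The other genes at the top of the higher side did not pass the edgeR test, and their adjusted p-values ran from 0.3 to 1. The vitamin D 24-hydroxylase CYP24A1, which breaks down active vitamin D, stood at 45.3 and 77.9 CPM at 24 months, against 4.51 CPM at 5 months. The transcription factor ZBTB16 stood at 277.9 and 504.0 CPM at 24 months, against 35.7 CPM at 5 months, at least 2.96 higher on the log2 scale in each library. KLF8, a zinc finger factor of the Krüppel-like family, stood at 92.9 and 190.9 CPM at 24 months, against 14.7 CPM at 5 months. NIBAN1, a stress-responsive gene in mammals, stood at 167.5 and 201.9 CPM at 24 months, against 21.5 CPM at 5 months. These 4 genes also lay above the 5-month level at 30 months, at 14.0, 234.4, 31.2 and 131.9 CPM. The potassium channel gene KCNK2 stood at 4.78 and 10.9 CPM at 24 months, against 0.288 CPM at 5 months, on 6 counts. The immunoglobulin light chain gene igl1c3 stood at 11.7 and 3.93 CPM at 24 months, against 0.288 CPM at 5 months, also on 6 counts. The remaining members of this top group were the synapsin syn2b, the tau-tubulin kinase ttbk1b and the adhesion receptor FLRT2 (ENSDARG00000097299), each under 70 CPM in every library, with cry5 and dsc2l described with their families. In this top group vopp1a, CYP8B1 (ENSDARG00000053068), CYP24A1, KCNK2, igl1c3, syn2b, ttbk1b and FLRT2 passed the floor of 5 CPM through the 24-month libraries only.

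**Figure D4:**
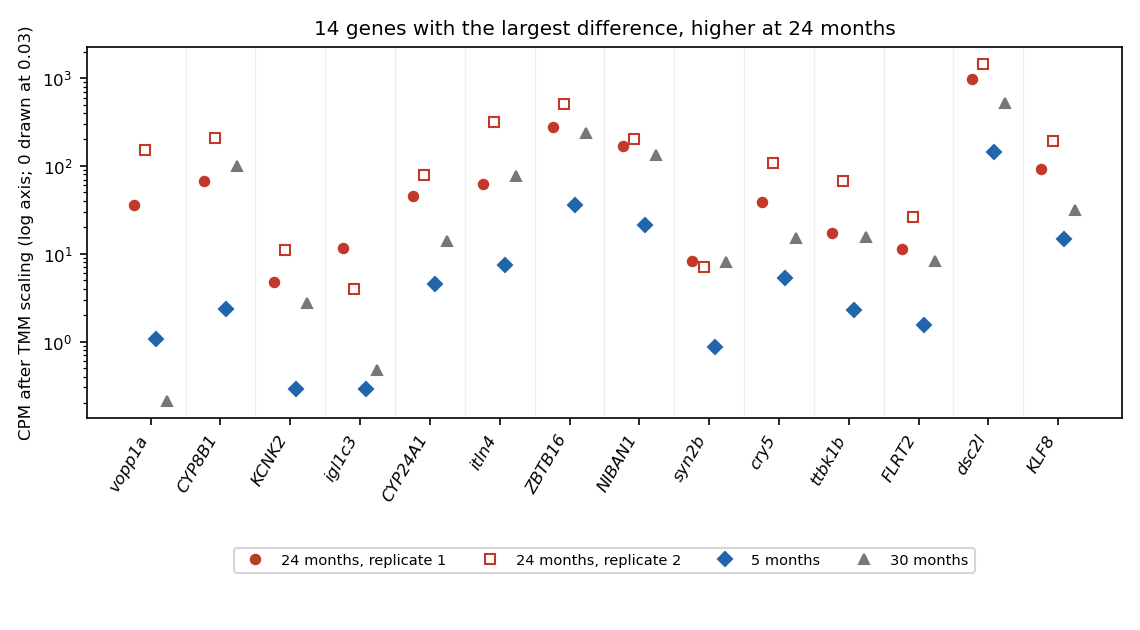
CPM after TMM scaling (log axis) in each library for 14 of the 15 genes with the largest higher difference in the 24-month library nearer to 5 months. Filled circles and open squares are the 24-month replicates 1 and 2, diamonds are 5 months and triangles are 30 months. Each gene lies at least 2.65 higher on the log2 scale in both 24-month libraries than at 5 months, and vopp1a is the gene whose 30-month level lies below the 5-month level.

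Some genes of epidermal anchorage and cell-cell adhesion were higher at 24 months, while most members of their lists were not called. Of 40 measured genes of basement membrane and hemidesmosome, 5 (12.5%) were higher and 3 (7.5%) lower, and 2 of the lower ones passed the floor of 5 CPM through the 5-month library only. The higher genes described here belong to the hemidesmosome and its laminin. The laminin beta chain gene lamb3 stood at 714.8 and 2374 CPM at 24 months, against 130.4 CPM at 5 months. The integrin subunit ITGB4, which binds laminin, stood at 2612 and 5899 CPM at 24 months, against 1192 CPM at 5 months. Collagen XVII is the transmembrane collagen of the hemidesmosome, and its paralogue col17a1b stood at 1251 and 2738 CPM at 24 months, against 371.4 CPM at 5 months. The other paralogue, col17a1a, went the other way, with 3.0 and 0.414 CPM at 24 months, against 20.2 CPM at 5 months. FREM3, of a family of epidermal basement membrane proteins, stood at 8.47 and 1.45 CPM at 24 months, against 37.3 CPM at 5 months. The basement membrane collagen col18a1b stood at 6.12 and 7.86 CPM at 24 months, against 36.9 CPM at 5 months. At 30 months FREM3 stood at 39.4 CPM, near the 5-month level, while col17a1a and col18a1b stood below it, at 5.72 and 20.3 CPM. In replicate 1 alone 5 members were higher and 15 lower, and in replicate 2 alone 11 were higher and 6 lower. The list medians were −0.68 and 0.31, so the list as a whole did not share the direction of its hemidesmosomal members.

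Of 21 desmosome and adherens junction genes, 5 (23.8%) were higher and 0 lower, with medians of 0.14 and 1.33. The count was also 5 under library totals and under DESeq2 size factors. The desmosomal cadherin gene dsc2l stood at 964.7 and 1452 CPM at 24 months, against 144.9 CPM at 5 months. A desmoglein gene, dsg2.1, stood at 1746.5 and 3273 CPM at 24 months, against 417.3 CPM at 5 months. Desmoplakin (DSP, ENSDARG00000022309), which ties desmosomes to keratin filaments, stood at 2333 and 3989 CPM at 24 months, against 737.6 CPM at 5 months. The plakophilin pkp3a, a plaque protein, stood at 1108 and 2279 CPM at 24 months, against 363.7 CPM at 5 months. Periplakin (PPL), counted here with the keratins it binds, stood at 1254.5 and 1431 CPM at 24 months, against 370.8 CPM at 5 months. At 30 months each of these 5 genes lay between the 5-month level and the lower 24-month level, from 525.1 CPM for dsc2l to 1078 CPM for pkp3a. None passed the edgeR test (adjusted p = 1 for each). Summed epidermal markers, which include PPL and TP63, moved with these genes, at 34995 and 62758 CPM at 24 months and 26097 CPM at 5 months, and their part was not tested.

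Calls among keratinocyte regulators and tight junction genes were all higher ones. The higher share over all genes was 3.78%. Of 24 keratinocyte transcription factors, 3 (12.5%) were higher and 0 lower, with medians of 0.04 and 1.12. In replicate 2 alone 13 of them were higher and 0 lower, and in replicate 1 alone 3 and 2. TP63, the master regulator of basal keratinocytes, stood at 367.6 and 816.6 CPM at 24 months, against 159.3 CPM at 5 months. GRHL2, a grainyhead factor of epithelial barriers, stood at 20 and 31.7 CPM at 24 months, against 8.59 CPM at 5 months. The Krüppel-like factor klf17 stood at 19.7 and 22.9 CPM at 24 months, against 7.01 CPM at 5 months. Of 39 tight junction genes, 3 (7.69%) were higher and 0 lower, with medians of −0.11 and 0.88, and the claudin cldn7a led them with 168.2 and 241.7 CPM at 24 months, against 26.7 CPM at 5 months. Under library totals 1 tight junction gene was higher. In replicate 2 alone 17 tight junction genes were higher and 3 lower, and in replicate 1 alone 3 and 0. The keratin list gave 1 higher gene of 20, which is PPL and no keratin, and 1 lower gene, krt1-19e, near the share over all genes. The basal keratin krt5 stood at 26286 and 49215 CPM at 24 months and 21069 CPM at 5 months.

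Transglutaminases, which cross-link proteins, split by paralogue. The list of transglutaminases and barrier lipids had 5 higher (17.2%) and 2 lower genes of 29. The 2 lower ones passed the floor of 5 CPM through the 5-month library only. TGM1 (ENSDARG00000017799), the homologue of the mammalian keratinocyte transglutaminase, stood at 72.8 and 130.1 CPM at 24 months, against 27.9 CPM at 5 months. Its relative tgm1l1 stood at 60.9 and 80.3 CPM at 24 months, against 21.4 CPM at 5 months, and tgm8 stood at 18.2 and 103.2 CPM at 24 months, against 8.16 CPM at 5 months. A further relative, tgm1l2, stood at 1.48 and 0.103 CPM at 24 months, against 52.9 CPM at 5 months, and fell by 5.98 on the log2 scale (SE 1.25, edgeR adjusted p = 0.00412). It was at 0.892 CPM at 30 months.

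Of 8 mucous, goblet and intelectin genes, 2 were lower and 1 was higher, the intelectin itln4 described above. The gel-forming mucin muc5.2 stood at 293.4 and 123.8 CPM at 24 months, against 622.1 CPM at 5 months. AGR2, which helps to fold mucins, stood at 57.8 and 77.0 CPM at 24 months, against 212.0 CPM at 5 months. At 30 months muc5.2 stood at 646.2 CPM and AGR2 at 45.5 CPM. Of 17 ionocyte and acid-base genes, 4 (23.5%) were lower and 0 higher, but 3 of the 4 passed the floor through the 5-month library only, and 2 were lower with a minimum of 10 CPM. The sodium-potassium ATPase subunit atp1a1a.4, used by ionocytes and kidney tubules, stood at 4.0 and 0.62 CPM at 24 months, against 111.5 CPM at 5 months, and fell by 5.55 (SE 1.01, edgeR adjusted p = 0.000416). The sodium-proton exchanger slc9a3.1 stood at 3.82 and 0 CPM at 24 months, against 13.6 CPM at 5 months, and the bicarbonate carrier SLC4A4 (ENSDARG00000013730) at 5.56 and 2.58 CPM, against 16.7 CPM. Both are also in the kidney tubule list, and the fourth member, SLC4A1, is also in the erythrocyte list. Kidney tubule and erythrocyte marker sums were lower at 24 months too, and their part in these 4 calls was not tested.

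In the dermis the fibrillar collagens did not separate the ages, because the 24-month libraries lay on either side of 5 months. COL1A1 stood at 1728 and 25099 CPM at 24 months and 14834 CPM at 5 months. Of 12 fibrillar collagen genes, 1 (col11a1b) was lower and 0 were higher, and the medians were −2.33 and 0.32. In replicate 1 alone 10 of 12 were lower, and in replicate 2 alone 1 was lower and 1 higher. Smaller matrix proteins had 10 of 47 (21.3%) lower and 2 (4.26%) higher, against 4.39% and 3.78% over all genes. Their medians were −0.74 and 0.11, so this list also differed between the replicates. In replicate 1 alone 19 members were lower and 3 higher, and in replicate 2 alone 10 were lower and 7 higher. The lower count was 8 under DESeq2 size factors and 7 with a minimum of 10 CPM. Asporin (ASPN), a small leucine-rich proteoglycan that binds collagen, stood at 1.22 and 1.55 CPM at 24 months, against 26.8 CPM at 5 months, a log2 difference of −4.34 and −4.02. Its relative osteoglycin (OGN, ENSDARG00000044132) stood at 4.39 and 7.03 CPM at 24 months, against 36.9 CPM at 5 months, and osteomodulin (OMD) at 23.8 and 12.4 CPM, against 59.7 CPM. The elastin gene elnb stood at 4.21 and 2.58 CPM at 24 months, against 15.8 CPM at 5 months. Asporin and osteoglycin were also below the 5-month level at 30 months, at 5.62 and 18.4 CPM, but osteomodulin was above it, at 96.9 CPM. Of the 10 lower members, 3 passed the floor through the 5-month library only.

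The 2 higher members of that list were THBS1 (ENSDARG00000010785), a thrombospondin that activates TGF-beta in mammals, and dermatopontin. THBS1 stood at 457.9 and 906.6 CPM at 24 months, against 125.8 CPM at 5 months, and DPT at 40.6 and 57.2 CPM, against 19.1 CPM. Collagen processing gave 2 higher and 3 lower genes of 32. The lysyl oxidase loxl2a, which cross-links collagen, stood at 89.7 and 205.9 CPM at 24 months, against 29.1 CPM at 5 months. The chaperone FKBP10 (ENSDARG00000045129), which assists collagen folding, stood at 10 and 18.5 CPM at 24 months, against 57.0 CPM at 5 months. Matrix proteases and inhibitors gave 3 higher genes (ADAMTS15, adam8b and TIMP4) and 1 lower gene of 34. The abundant gelatinase MMP2 differed little, with 300.0 and 262.4 CPM at 24 months and 353.2 CPM at 5 months.

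Of 27 measured genes of scale and bone formation, 4 (14.8%) were lower and 1 (mgp) higher, and 2 of the 4 passed the floor through the 5-month library only. The osteocalcin-like gene bglapl, of mineralised matrix, stood at 0.478 and 1.14 CPM at 24 months, against 31.7 CPM at 5 months, and fell by 5.32 (SE 1.30, edgeR adjusted p = 0.0408). SP7 (osterix), the transcription factor of osteoblasts and scale-forming cells, stood at 3.74 and 4.55 CPM at 24 months, against 22.7 CPM at 5 months. The secreted phosphoprotein gene scpp7 stood at 36.9 and 150.8 CPM at 24 months, against 657.2 CPM at 5 months. ENTPD5, needed for mineralisation in zebrafish, stood at 8.82 and 35.6 CPM at 24 months, against 87.6 CPM at 5 months. The summed scale-cell markers, which include SP7 and ENTPD5, did not keep this order, at 483.0 and 9771 CPM at 24 months and 5536 CPM at 5 months. Most of that sum is the scale collagen COL10A1 (ENSDARG00000101535), at 284.4 and 8735 CPM at 24 months and 4420 CPM at 5 months.

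Few pigment cell genes met the 2-fold rule. Of 12 melanophore genes 0 were called in either direction, with 3.78% and 4.39% called over all genes. Of 20 xanthophore and pteridine genes 2 were lower, of which 1 passed the floor of 5 CPM through the 5-month library only. The first enzyme of pteridine synthesis in xanthophores, gch2, stood at 19.3 and 42.7 CPM at 24 months, against 112.0 CPM at 5 months. At 30 months gch2 stood at 8.97 CPM. Among 21 iridophore and purine genes 1 was lower, ADSS1 of adenine nucleotide synthesis, at 54.0 and 36.0 CPM at 24 months, against 141.2 CPM at 5 months. At 30 months ADSS1 stood at 253.9 CPM, above the 5-month level. Skeletal muscle markers were also lower at 24 months, at 6415 and 5046 CPM, than at 5 and 30 months, at 15294 and 14587 CPM. The part of muscle in the ADSS1 values was not tested. The 2 higher iridophore and purine genes were IMPDH1 (ENSDARG00000042336) of guanine synthesis and the factor TFEC. IMPDH1 stood at 30.7 and 69.7 CPM at 24 months, against 7.15 CPM at 5 months, and TFEC at 11.9 and 10.1 CPM, against 3.74 CPM. Of these 2, 1 passed the floor of 5 CPM through the 24-month libraries only.

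Immune genes were called almost only on the higher side. Antigen presentation genes had 8 of 37 (21.6%) higher and 0 lower, with medians of 0.82 and 0.39, and 4 were higher under library totals. Of the 8, 1 (mhc1zja) passed the floor of 5 CPM through the 24-month libraries only. The invariant chain guides MHC class II molecules to their compartment, and its paralogue cd74a stood at 1819 and 3819 CPM at 24 months, against 632.6 CPM at 5 months. The other paralogue, cd74b, stood at 942.8 and 1431 CPM at 24 months, against 212.1 CPM at 5 months. At 30 months they stood at 1389 and 659.0 CPM, also above the 5-month library. The MHC class I gene mhc1zja stood at 8.6 and 7.24 CPM at 24 months, against 2.02 CPM at 5 months. The immunoproteasome subunit PSMB9 stood at 56.7 and 64.1 CPM at 24 months, against 26.1 CPM at 5 months, and the peptide loading gene tapbpl at 31.1 and 34.8 CPM, against 13.6 CPM. The list took 0.764% and 0.658% of all counts at 24 months and 0.316% at 5 months.

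T and NK cell genes had 5 of 19 (26.3%) higher and 0 lower, of which 4 passed the floor through the 24-month libraries only. The called members described here act in signalling of the T cell receptor. The kinase ZAP70 stood at 18.0 and 24.6 CPM at 24 months, against 4.37 CPM at 5 months. The adaptor lat stood at 12.8 and 10.7 CPM at 24 months, against 1.97 CPM at 5 months, and THEMIS, which tunes receptor signals in thymocytes, at 17.1 and 44.1 CPM, against 3.98 CPM. At 30 months ZAP70, lat and THEMIS stood at 14.3, 7.14 and 12.3 CPM, above the 5-month library in each case. B cell genes had 1 higher (igl1c3) and 1 lower gene (RAG2) of 22, near the shares over all genes. The gene igl1c3 passed the floor through the 24-month libraries only. The recombinase RAG2 stood at 12.7 and 0.103 CPM at 24 months, against 33.2 CPM at 5 months and 0.0525 CPM at 30 months. Testis and germ cell markers were also lowest in replicate 2 and at 30 months, with sums of 0.827 and 1.05 CPM. Their part in the RAG2 values was not tested.

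Macrophage genes had 7 of 42 (16.7%) higher and 0 lower, with medians of 1.16 and 0.39. Here replicate 1 carried most of the difference, with 22 members higher in it alone and 8 in replicate 2 alone. SPI1 (PU.1), the myeloid transcription factor, stood at 47.0 and 19.2 CPM at 24 months, against 7.05 CPM at 5 months. The scavenger receptor marco stood at 58.9 and 33.7 CPM at 24 months, against 11.4 CPM at 5 months. MFAP4 (ENSDARG00000038683), whose zebrafish copies mark macrophages, stood at 32.0 and 55.5 CPM at 24 months, against 7.49 CPM at 5 months. Progranulin (grna), a lysosomal and secreted protein of myeloid cells, stood at 421.4 and 208.3 CPM at 24 months, against 85.4 CPM at 5 months. The neutrophil list gave 2 lower genes and 1 higher gene of 13. Lysozyme (lyz) stood at 7.82 and 2.9 CPM at 24 months, against 37.6 CPM at 5 months, and the protease npsn at 9.86 and 4.65 CPM, against 49.1 CPM. Both are granule genes of neutrophils, which are also plentiful in zebrafish kidney, and the kidney tubule markers given above moved with them. Whether kidney tissue had a part in these values was not tested.

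Other inflammatory lists gave few calls, all higher. They were 4 of 57 (7.02%) cytokine and chemokine genes, 4 of 56 (7.14%) interferon response genes and 2 of 24 (8.33%) complement genes. In the cytokine and interferon lists, 1 call each passed the floor of 5 CPM through the 24-month libraries only. The share over all genes was 3.78%, and under library totals the counts were 2, 3 and 1. In replicate 2 alone 15, 11 and 3 members of these lists were higher, and 10, 14 and 14 lower. In replicate 1 alone 15, 15 and 17 were higher, and 0, 1 and 0 lower. Cytokine and chemokine genes had medians of 0.57 and 0.43, and interferon response genes 0.36 and −0.05. The stromal chemokine CXCL12 stood at 280.1 and 231.3 CPM at 24 months, against 98.9 CPM at 5 months. The chemokine ccl44 stood at 25.1 and 28.2 CPM at 24 months, against 5.95 CPM at 5 months. SOCS1, a feedback inhibitor of cytokine signalling, stood at 25.7 and 28.8 CPM at 24 months, against 8.78 CPM at 5 months. The membrane attack component c7a stood at 160.2 and 176.0 CPM at 24 months, against 60.5 CPM at 5 months. Complement genes had medians of 1.62 and −1.18, and liver markers moved in the same way, at 626.8 and 1.76 CPM at 24 months and 152.4 CPM at 5 months, and their part was not tested.

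Genes of protein synthesis were called on the higher side only. Of 86 cytosolic ribosomal protein genes 11 (12.8%) were higher and 0 lower, with medians of 0.57 and 1.22. The higher share was 3.78% over all genes and 12.8% over the 243 genes that averaged 500 CPM or more. The part of abundance in the counts of protein synthesis genes was not tested. The list took 6.59% and 8.04% of counts at 24 months and 4.71% at 5 months. The small subunit gene RPS28 stood at 579.3 and 769.2 CPM at 24 months, against 123.5 CPM at 5 months. In replicate 1 alone 14 members were higher, and in replicate 2 alone 56. At 30 months RPS28 stood at 454.7 CPM.

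Translation factors had 10 of 83 (12%) higher and 0 lower, and 6 were higher under library totals. Of the 10, 1 passed the floor of 5 CPM through the 24-month libraries only. EEF1D, a subunit of the exchange factor of elongation, stood at 249.8 and 405.0 CPM at 24 months, against 84.9 CPM at 5 months. The initiation factor subunit EIF3K stood at 151.9 and 179.5 CPM at 24 months, against 64 CPM at 5 months. Ribosome biogenesis had 9 of 67 (13.4%) higher and 0 lower, with medians of 0.54 and 0.48. The GTPase GTPBP4, of large subunit assembly, stood at 697.5 and 803.0 CPM at 24 months, against 194.4 CPM at 5 months. DDX21, a nucleolar RNA helicase, stood at 377.8 and 578.5 CPM at 24 months, against 144.0 CPM at 5 months, and nucleolin (ncl) at 568.8 and 863.6 CPM, against 281.6 CPM. Of 87 splicing genes and 20 aminoacyl-tRNA synthetases 0 were called in either direction. The splicing medians, 0.32 and 0.67, were close to those of translation factors, 0.3 and 0.67, and the synthetase medians were −0.03 and 0.32. In replicate 2 alone 26 splicing genes were higher and 7 lower, against 27 and 11 translation factors. In replicate 1 alone 2 splicing genes were higher and 0 lower, against 12 and 2 translation factors. Whether the lists differ from each other was not tested.

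Glucocorticoid-induced genes, a list drawn from known targets of the receptor in vertebrates, had 8 of 33 (24.2%) higher and 2 (6.06%) lower. The shares over all genes were 3.78% and 4.39%. The list medians were 0.17 and 0.82. In replicate 1 alone 9 members were higher and 6 lower, and in replicate 2 alone 16 and 5. Of the 8 higher members, 1 (FBXO32) passed the floor of 5 CPM through the 24-month libraries only. The members described here are all higher ones. The higher count was also 8 under library totals and under DESeq2 size factors. ZBTB16 is described above, and its paralogue zbtb16b stood at 142.0 and 114.2 CPM at 24 months, against 32.7 CPM at 5 months. The co-chaperone FKBP5, a feedback regulator of the glucocorticoid receptor, stood at 1104 and 2050 CPM at 24 months, against 421.8 CPM at 5 months. KLF9, a direct receptor target in zebrafish larvae, stood at 78.4 and 224.1 CPM at 24 months, against 15.1 CPM at 5 months. The ubiquitin ligase FBXO32 stood at 19.8 and 15.8 CPM at 24 months, against 4.94 CPM at 5 months, and the transcription factor CEBPB at 191.3 and 609.5 CPM, against 92.4 CPM. DDIT4, an inhibitor of mTORC1, stood at 178.3 and 231.0 CPM at 24 months, against 67.2 CPM at 5 months. At 30 months each of these 6 genes lay above the 5-month level, from 86.2 CPM for FBXO32 to 551.0 CPM for FKBP5. No member passed the edgeR test.

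Stress lists gave fewer calls. Heat shock and chaperone genes had 3 higher and 2 lower of 84, within the shares over all genes. Of the 3 higher ones, 1 passed the floor of 5 CPM through the 24-month libraries only. The chaperone hsp90aa1.1, which zebrafish muscle needs for myosin folding, stood at 23.5 and 20.2 CPM at 24 months, against 120.8 CPM at 5 months. Its place beside the muscle genes described below was not tested. Immediate early genes had 3 higher and 1 lower of 57, with klf6b at 29.4 and 51.8 CPM at 24 months, against 6.53 CPM at 5 months. In replicate 2 alone 35 immediate early genes were higher, and in replicate 1 alone 5. Antioxidant and glutathione genes had 0 of 60 called in either direction, and p53 and senescence genes 2 of 42 higher.

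Circadian clock genes had 5 of 47 (10.6%) higher and 4 (8.51%) lower, of which 2 passed the floor through the 5-month library only, and 7 were lower under library totals. The time of day of sampling is not given in the sources used here. Higher genes were cryptochromes and a period gene, some of which light induces in zebrafish. The photolyase-related cry5 stood at 38.8 and 107.0 CPM at 24 months, against 5.28 CPM at 5 months (edgeR adjusted p = 0.3). PER2 stood at 138.3 and 415.2 CPM at 24 months, against 55.9 CPM at 5 months. The cryptochrome cry3b stood at 61.5 and 109.8 CPM at 24 months, against 16.2 CPM at 5 months, and cry3a at 82.4 and 104.4 CPM, against 36.7 CPM. Lower genes were the nuclear receptors and bZIP factors of the accessory loops. The receptor gene rorca stood at 3.3 and 3.31 CPM at 24 months, against 19.1 CPM at 5 months, and rorcb at 4.6 and 0.517 CPM, against 25.0 CPM. The bZIP factor dbpb stood at 32.5 and 25.6 CPM at 24 months, against 82.8 CPM at 5 months, and nfil3-5 at 19.5 and 14.1 CPM, against 52.9 CPM. At 30 months rorca and rorcb stood at 16.1 and 20.9 CPM, near the 5-month library.

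In metabolism, lower calls outnumbered higher ones. Of 48 glycolysis and gluconeogenesis genes 8 (16.7%) were lower and 0 higher, with 12 lower under library totals. Of the 8 lower genes, 2 passed the floor of 5 CPM through the 5-month library only. The muscle isoform of phosphofructokinase, PFKM (ENSDARG00000014179), stood at 19.4 and 14.3 CPM at 24 months, against 75.8 CPM at 5 months. PGAM2, the muscle phosphoglycerate mutase, stood at 42.0 and 46.8 CPM at 24 months, against 179.4 CPM at 5 months. The muscle glycogen phosphorylase PYGM (ENSDARG00000055518) stood at 76.2 and 62.6 CPM at 24 months, against 249.0 CPM at 5 months. These 3 are named for muscle, and skeletal muscle markers moved with them at 6415 and 5046 CPM at 24 months and 15294 CPM at 5 months, a part that was not tested. At 30 months PFKM, PGAM2 and PYGM stood at 138.7, 325.1 and 527.5 CPM, above the 5-month level. The muscle markers summed to 14587 CPM there. The widely used GAPDH stood at 1404 and 1074 CPM at 24 months and 1271 CPM at 5 months.

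Lipid genes had 3 higher and 8 (11%) lower of 73. Of the 8 lower ones, 2 passed the floor of 5 CPM through the 5-month library only. The last step of triglyceride synthesis is catalysed by DGAT2, at 10.2 and 2.79 CPM at 24 months, against 36.5 CPM at 5 months, and DGAT1 (ENSDARG00000103503), at 4.17 and 4.96 CPM, against 15.4 CPM. At 30 months DGAT2 stood at 16.2 CPM, below the 5-month level, and DGAT1 at 25.3 CPM, above it. The fatty acid binding protein gene fabp1b.2 stood at 162.3 and 166.5 CPM at 24 months, against 26.3 CPM at 5 months. At 30 months fabp1b.2 stood at 0.21 CPM, below every other library. The lipid droplet coat gene plin3 stood at 92.1 and 180.2 CPM at 24 months, against 36.2 CPM at 5 months, and the acyl-CoA synthetase ACSL4 (ENSDARG00000010752) at 84.6 and 82.5 CPM, against 27.9 CPM. Sterol synthesis did not separate the ages, with 1 of 34 genes lower (5 under library totals) and medians of −0.79 and 0.75. Nuclear genes of oxidative phosphorylation had 1 of 95 called, the ATP synthase subunit atp5mc1, at 68.6 and 100.2 CPM at 24 months, against 248.2 CPM at 5 months. Of 13 mitochondrial transcripts 1 was lower, mt-atp8, at 136.8 and 61.4 CPM at 24 months, against 488.2 CPM at 5 months. The medians of these 13 were 0.16 and −1.81. In replicate 2 alone 10 were lower and 0 higher, and in replicate 1 alone 1 was lower and 1 higher. They took 6.45% and 1.27% of counts at 24 months, 5.23% at 5 months and 12.9% at 30 months, so the 24-month libraries differed here.

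Among signalling pathways the Wnt list had 4 of 38 (10.5%) higher and 0 lower, with medians of −0.13 and 0.73. This one-sided count depends on the floor, as 4 were higher and 6 lower with a minimum of 1 CPM. Of the 4 higher genes, 1 passed the floor of 5 CPM through the 24-month libraries only. Among these 4 genes, 3 encode secreted inhibitors of the pathway. The inhibitor SFRP1 (ENSDARG00000057678) stood at 148.0 and 179.6 CPM at 24 months, against 61.7 CPM at 5 months. WIF1 stood at 32.1 and 34.7 CPM at 24 months, against 14.9 CPM at 5 months, and dkk2 at 11.5 and 23.9 CPM, against 4.99 CPM. The fourth, the nuclear effector LEF1, stood at 19.5 and 31.3 CPM at 24 months, against 8.25 CPM at 5 months. BMP and TGF-beta genes gave 2 (3.12%) higher and 1 (1.56%) lower of 64, below the shares of 3.78% and 4.39% over all genes. Of the 2 higher ones, 1 passed the floor through the 24-month libraries only. The activin antagonist FSTL3 stood at 95.2 and 181.9 CPM at 24 months, against 40.8 CPM at 5 months. Myostatin (mstnb), which restrains muscle growth, stood at 5.56 and 8.17 CPM at 24 months, against 27.9 CPM at 5 months and 67.3 CPM at 30 months. Insulin and IGF genes gave 2 (4.08%) higher and 1 (2.04%) lower of 49, near or below the shares over all genes. Among the higher ones was the mTOR inhibitor DEPTOR, at 116.8 and 204.0 CPM at 24 months, against 39.4 CPM at 5 months. Growth factor receptor genes gave 1 higher and 3 lower of 34, and 2 of the 3 passed the floor through the 5-month library only, with the FGF-induced factor etv5b at 5.21 and 4.55 CPM at 24 months, against 19.6 CPM at 5 months.

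Vessel and mural cell genes had 4 of 42 (9.52%) lower and 1 higher, and all 4 lower ones passed the floor through the 5-month library only. VEGFA (ENSDARG00000103542), the main growth factor of endothelium, stood at 4.52 and 2.79 CPM at 24 months, against 13.4 CPM at 5 months. Of 25 nerve and Schwann cell genes 3 were lower and 2 higher. The 2 higher ones passed the floor through the 24-month libraries only, and 1 of the 3 lower ones through the 5-month library only. The myelin basic protein gene mbpa stood at 32.6 and 35.4 CPM at 24 months, against 78.1 CPM at 5 months. Neurofilament light chain (NEFL), of axons, stood at 4.47 and 15.8 CPM at 24 months, against 2.02 CPM at 5 months.

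Proliferation genes were lower mainly in replicate 2. Of 93 genes of DNA replication and mitosis 5 (5.38%) were lower and 0 higher, close to the 4.39% over all genes, and the medians were −0.36 and −2.41. Of the 5, 1 passed the floor of 5 CPM through the 5-month library only. In replicate 2 alone 75 of 93 were lower, and in replicate 1 alone 6, and under DESeq2 size factors 2 met the rule. The helicase subunit MCM2 stood at 59.7 and 45.7 CPM at 24 months, against 125.0 CPM at 5 months. PCNA, the sliding clamp, stood at 97.8 and 78.3 CPM at 24 months and 147.9 CPM at 5 months, within 2-fold. Testis markers moved with this list, at 593.7 and 0.827 CPM at 24 months and 625.3 CPM at 5 months, and motile cilium genes had medians of −0.30 and −5.70. The part of germ cells in these values was not tested. DNA repair genes had 4 lower and 1 higher of 57, the higher one being XPC, a damage sensor, at 23.3 and 28.4 CPM at 24 months, against 8.69 CPM at 5 months. Of the 4 lower ones, 2 passed the floor of 5 CPM through the 5-month library only.

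The largest lower differences included many genes of the kidney tubule. The cadherin CDH17, of kidney and gut epithelia, stood at 0.347 and 0 CPM at 24 months, against 78.0 CPM at 5 months, and fell by 8.51 (SE 1.28, edgeR adjusted p = 6.15e-07). MFSD4A (ENSDARG00000008263), a membrane transporter, had 0 counts in both 24-month libraries and 334 counts at 5 months, so it was at least 174.7-fold lower against a limit of 3 counts over the group (edgeR adjusted p = 0.0161). The cotransporter SLC12A3 stood at 0.478 and 0 CPM at 24 months, against 36.9 CPM at 5 months (edgeR adjusted p = 0.00412). Amino acid uptake in the kidney is assisted by collectrin (cltrn), which had 3 counts over both 24-month libraries, against 391 in the 5-month library, and the counting interval of its ratio of 204.5 ran from 69.5 to 995.8. The parvalbumin gene pvalb9, a calcium buffer, had 1 count at 24 months, against 356 in the 5-month library, and the counting interval of its ratio of 558.5 ran from 99.6 to 22121.1. The sodium-monocarboxylate carrier SLC5A12 stood at 1.52 and 0 CPM at 24 months, against 28.0 CPM at 5 months, but did not pass the edgeR test (adjusted p = 0.241). The decarboxylase DDC, which makes dopamine and serotonin, stood at 0.956 and 5.58 CPM at 24 months, against 73.5 CPM at 5 months, and fell by 4.51 (SE 1.07, edgeR adjusted p = 0.0288). The other called lower genes of this kind were SLC13A3, SLC22A8, SLC34A1, CUBN and pdzk1. With clone-style names, zgc:158427 stood at 0.391 and 2.07 CPM at 24 months, against 65.0 CPM at 5 months, and si:ch211-5k11.8 at 55.1 and 31.1 CPM, against 487.7 CPM (edgeR adjusted p = 0.00332 and 0.0457). At 30 months several of these genes were low too, with CDH17 at 0.42 CPM, DDC at 2.1 CPM and SLC5A12 at 0 CPM.

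**Figure D5:**
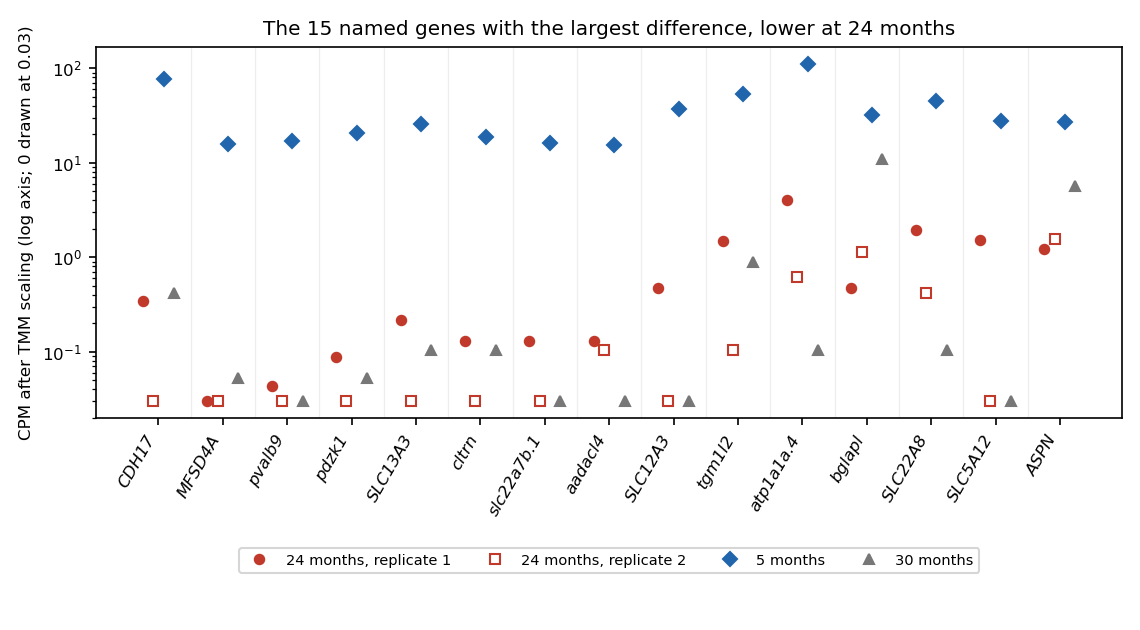
CPM after TMM scaling (log axis, with 0 drawn at 0.03) in each library for the 15 genes with the largest lower difference in the 24-month library nearer to 5 months. Filled circles and open squares are the 24-month replicates 1 and 2, diamonds are 5 months and triangles are 30 months. All 15 stand between 15.4 and 111.5 CPM at 5 months and below 5 CPM in both 24-month libraries, and bglapl and ASPN are the members with 30-month levels above 5 CPM.

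Of 33 kidney tubule genes 18 (54.5%) were lower and 1 higher. This count is fixed in part by the floor, since 17 of the 33 passed it through the 5-month library only and all 17 were lower. The higher member was DAB2 (ENSDARG00000053091), an endocytic adaptor that other cells also use, at 179.3 and 167.4 CPM at 24 months, against 46.8 CPM at 5 months. All 10 kidney marker genes were at 1 CPM or more at 5 months, while 4 reached it in replicate 1 and 1 in replicate 2. Whether kidney tissue was taken with the skin at 5 months was not tested.

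Skeletal muscle genes had 42 of 107 (39.3%) lower and 2 higher, with medians of −0.84 and −1.74, and 8 of the 42 passed the floor through the 5-month library only. Of the 2 higher ones, 1 passed it through the 24-month libraries only. The list took 4.23% and 2.1% of counts at 24 months, 7.58% at 5 months and 6.59% at 30 months. The actin ACTA1 (ENSDARG00000055618), of sarcomeric thin filaments, stood at 27.8 and 5.58 CPM at 24 months, against 326.4 CPM at 5 months, and fell by 4.28 (SE 0.86, edgeR adjusted p = 0.00295). The parvalbumin pvalb2, of fast muscle, stood at 625.7 and 168.1 CPM at 24 months, against 4630 CPM at 5 months. Slow myosin heavy chains split, with smyhc1 at 47.5 and 36.3 CPM at 24 months against 406.3 CPM at 5 months, and smyhc2 at 1004.5 and 280.7 CPM against 125.0 CPM. At 30 months smyhc2 stood at 4009 CPM and smyhc1 at 148.2 CPM. These genes are near-identical copies whose reads counting may split, so single values are uncertain. Muscle lies just under the skin, and the amount of muscle taken with each sample was not tested.

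Erythrocyte genes had 11 of 22 (50%) lower and 0 higher, with medians of −1.35 and −2.34, and 3 of the 11 passed the floor through the 5-month library only. The alpha globin hbaa2 stood at 5.65 and 2.38 CPM at 24 months, against 87.0 CPM at 5 months, and fell by 4.42 (SE 1.01, edgeR adjusted p = 0.0161). A beta-type globin, listed under the human-style symbol HBE1 (ENSDARG00000089087), stood at 104.9 and 71.5 CPM at 24 months, against 584.6 CPM at 5 months. The band 3 anion exchanger SLC4A1 (ENSDARG00000012881), of the red cell membrane, stood at 9.56 and 1.65 CPM at 24 months, against 86.8 CPM at 5 months (edgeR adjusted p = 0.0557). At 30 months the globins stood at 6.25 CPM for hbaa2 and 63.3 CPM for HBE1 (ENSDARG00000089087), also below the 5-month library. Blood in the sample and blood formation in kidney tissue, whose markers moved with these genes, were not tested apart.

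Genes of testis and motile cilia were lower chiefly in replicate 2, so most of them did not meet the rule in both libraries. Of 45 testis and germ cell genes 5 were lower, with medians of −0.21 and −6.77. Of 76 motile cilium genes 9 (11.8%) were lower. Both shares still lay above the 4.39% over all genes. In replicate 2 alone 42 testis and 70 cilium genes were lower, and 1 and 2 higher. In replicate 1 alone 5 and 10 were lower, and 0 and 0 higher. The Leydig cell hormone insl3 stood at 25.6 and 0 CPM at 24 months, against 66.4 CPM at 5 months. The steroid hydroxylase CYP17A1 stood at 17.5 and 0.31 CPM at 24 months, against 45.9 CPM at 5 months. The axonemal dynein dnah5l stood at 372.8 and 0.62 CPM at 24 months, against 764.5 CPM at 5 months, a log2 difference of −1.04 in replicate 1, just past the threshold. Under DESeq2 size factors 4 of the 76 cilium genes were lower. Around the threshold in general, 88 higher and 107 lower genes lay within 0.1 on the log2 scale inside it, and 115 and 157 within 0.1 outside it.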

How the data were processed

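Libraries of mRNA from male zebrafish skin (4 in all) were analysed. Per the submitters' processing notes, the authors used CASAVA 1.7, STAR 2.4.1d and featureCounts 1.4.6-p4 with the build GRCz10, and the deposited table holds raw read counts per Ensembl gene. No source used here gives the annotation release or the strand setting, so overlapping and antisense genes cannot be told apart. A second deposited table was not used here. Symbols were found for 26269 of 32105 genes, many in human style, and 4301 share a symbol.

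TMM factors (1.15 and 0.817 at 24 months, 1.14 at 5 months, 0.932 at 30 months) were computed on the 21535 genes kept by filterByExpr with edgeR 4.0.16 in R 4.3.3. Log2 differences of CPM used a prior count of 2. The edgeR quasi-likelihood test used group means of all 4 libraries with 1 residual degree of freedom, prior degrees of freedom that came out infinite, and Benjamini-Hochberg adjustment. DESeq2 1.42.0, limma-voom (limma 3.58.1), other scalings, minimum levels and fold thresholds, and each 24-month library alone, were the alternatives.

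The members, the 66 gene lists and the naming rule were chosen with earlier results of these data known. Names that matched unintended genes were removed from lists after values were seen: ribosomal protein kinases, APOBEC genes, hbegf, hif1al, kcnj12 and kcnj13, DLD, and mfap4 from the matrix list. Named genes are the 15 higher and 15 lower with the largest difference in the 24-month library nearer to 5 months, up to 4 called members a list and direction with its most abundant member, and edgeR-called genes that meet the 2-fold rule. Genes in the closing observations other than these, and DDIT4, were chosen after their values were seen. A few genes that meet this rule are not reported here.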

Additional observations from a re-analysis of the deposited data

How the results depend on the processing

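Higher genes numbered 853 with no minimum level, 79 at a fold of 4 and 932 to 2749 with either 24-month library left out, against 496 as reported. Lower genes numbered 1299 with a minimum mean of 1 CPM, 341 with 10 CPM, 2629 with no minimum, 92 at a fold of 4 and 1249 to 2929 with either 24-month library left out, against 576. Other settings kept both counts within 1.5 times, and of the 496 and 576 genes, 367 and 573 were also called with library totals. The 27 edgeR calls became 0 with library totals (356 genes at an unadjusted p under 0.05), 0 with a minimum of 5 CPM (216), 0 with the newer dispersion setting (493), 41 with DESeq2 and 3 with limma-voom, and the cause was not tested. Leaving out a 24-month library leaves no residual spread for edgeR, so that test was not run. No called gene named here turned its direction under any scaling tried. No paired analysis was possible, because the lone 5-month library cannot be matched to each 24-month library. Depth limits replicate 2 most, where 3 counts are 0.31 CPM.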

Other observations

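A few genes outside the lists, which were picked after their values were seen among those already called higher, carry no test and stand for no group. WAS, the actin regulator of blood cells, stood at 49.5 and 54.9 CPM at 24 months, against 11.9 CPM at 5 months, and its binding partner WIPF1 at 20.5 and 52.4 CPM, against 6.24 CPM. The adaptor lcp2a (SLP-76), which joins LAT in T cells, stood at 20.1 and 23.1 CPM at 24 months, against 4.65 CPM at 5 months. The lymphoid adaptor SASH3 stood at 23.8 and 28.1 CPM at 24 months, against 5.23 CPM at 5 months, and pleckstrin (PLEK), of platelets and leukocytes, at 13.2 and 13.9 CPM, against 4.08 CPM. The genes klhl6 and blk, a kinase, stood at 12.3 and 7.13 CPM and at 7.04 and 6.31 CPM at 24 months, against 2.02 and 1.73 CPM at 5 months.

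The alcohol dehydrogenase adh8a stood at 1087 and 1142 CPM at 24 months, against 238.8 CPM at 5 months, and at 1212 CPM at 30 months. The de novo DNA methyltransferase DNMT3B stood at 12.4 and 9.82 CPM at 24 months, against 48.0 CPM at 5 months, and at 13.1 CPM at 30 months. The gene wt1b, whose regulatory sequence drives the reporter, stood at 7.47 and 0 CPM at 24 months, against 1.15 CPM at 5 months, and at 0.787 CPM at 30 months, below the floor of 5 CPM. No gene stood at 10 CPM or more in both 24-month libraries and at 0.5 CPM or less in both other libraries, and none did the opposite. The gene vopp1a, at 35.6 and 152.1 CPM at 24 months and 0.21 CPM at 30 months, missed these limits only by its 1.06 CPM at 5 months. The 24-month libraries lay at least 2-fold on opposite sides of 5 months at 104 genes higher in replicate 1 and lower in replicate 2, and at 69 genes the other way. Of the called genes, 35 higher and 15 lower ones have no symbol, and 134 higher and 175 lower ones belong to a list.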
